A study of Rattus norvegicus with 10 samples.

Results

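Il33 and 7 other genes of cytokine and chemokine signalling were described in fetal rat kidneys: the ligand genes Il33 and Il18, the receptor genes Il1rl1 and Il6st, the chemokine genes Cxcl12, Cx3cl1 and Ccl2, and the chemokine receptor gene Cxcr4. They were represented by every probe set of the array whose single gene symbol in the platform annotation was one of these names, which gave 16 of 15923 probe sets. The study compared whole kidneys on gestation day 22, close to birth, in 2 groups of 5 samples with 1 Affymetrix array each. Fetuses of the normal group (replicates 1 to 5) had mothers on a regular diet. Fetuses of the hyperinsulinemic group (replicates 6 to 10) were growth restricted and had Wistar mothers of 200 to 280 g on a normal diet, each given a 2 mm piece of sustained-release insulin implant under the skin before mating and again after it. The labels give no strain for the normal mothers, and no litter, mother or sex for any fetus. With nothing to mark separate mothers or litters, the p-values below reflect how these samples vary, and part of that variation may be technical. The 8 genes were chosen from results of this same comparison, in which Il33 had been named for the size of its group difference. Group differences of these genes are therefore a description, with no test.

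Cytokines are secreted or released proteins that act through receptors on nearby cells. The protein of Il33 is an alarmin of the interleukin-1 family: it is held in the nucleus of stromal, endothelial or epithelial cells and is released when they are damaged, to be sensed by immune cells through the receptor that Il1rl1 encodes. Interleukin-18, of the same family, is made as a precursor and matured by caspase-1. Il6st encodes the signalling subunit shared by the receptors of interleukin-6, leukaemia inhibitory factor and related cytokines. Chemokines are small proteins that direct cell movement. Cxcl12 and its receptor Cxcr4 guide blood vessel and progenitor cells in developing organs, the kidney included, while Cx3cl1 is anchored in the membrane and Ccl2 recruits monocytes.

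The upstream sequence of Il33 is shown because it was the member whose group values lay farthest apart. The RefSeq promoter table (GRCr8) holds 2 starts for this gene on chromosome 1, 19373 bases apart, and the array does not say which was used. RefSeq's gene table begins the gene 95 bases before the first of them, so that window and its motif positions hold for the promoter table's start only. The 250 bases before each are given 5′ to 3′ on the plus strand, at chr1:237115323-237115572 and chr1:237134696-237134945, with matches to the searched motifs in capitals.
Il33, upstream start: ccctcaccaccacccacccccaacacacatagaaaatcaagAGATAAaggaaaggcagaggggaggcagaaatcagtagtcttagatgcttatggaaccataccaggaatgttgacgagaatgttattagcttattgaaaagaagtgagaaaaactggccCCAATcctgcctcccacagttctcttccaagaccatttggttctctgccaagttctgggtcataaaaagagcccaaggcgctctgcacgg
Il33, downstream start: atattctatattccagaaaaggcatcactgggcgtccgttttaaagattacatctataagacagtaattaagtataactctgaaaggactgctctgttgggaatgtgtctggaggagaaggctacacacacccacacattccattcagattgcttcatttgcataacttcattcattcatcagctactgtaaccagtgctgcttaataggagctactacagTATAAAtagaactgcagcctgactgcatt
The motifs, searched on both strands over 300 bases from 250 before to 50 after a start, were the TATA box (TATAAA), the CAAT box (CCAAT), the site of GATA factors (AGATAA), the AP-1 site (TGANTCA), the site of STAT factors (TTCNNNGAA) and the NF-kappa-B site. Before the downstream start a TATA box lay at -29 to -24; a TATA box was present in 14.2% of the 33469 promoters in the table. Before the upstream start a GATA site lay at -209 to -204 and a CAAT box at -90 to -86, which 11.6% and 37.5% of promoters held. Neither Il33 window held the AP-1, STAT or NF-kappa-B letters, found in 7.33%, 8.87% and 7.51% of promoters. Such a match is a description of the letters only.

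Some facts of the arrays bear on all that follows. Signals are MAS5 values, a linear brightness per probe set that the authors had scaled to the same trimmed mean of 250 on every array. Array medians ran from 130 to 136.9. Hyperinsulinemic replicate 6 stood apart, with a median correlation to the other arrays of 0.981 against 0.985 to 0.988 for the rest. The X-inactivation transcript Xist ran from 0.8 to 2 on normal arrays and from 42.4 to 70.5 on hyperinsulinemic arrays. These ranges lie far apart, though both are below the signal needed for testing, which was 79.2 to 87.6 depending on the array. The labels give no fetal sex, so the mother's treatment and whatever sets Xist, a difference in fetal sex included, cannot be told apart in any value below. Kidney markers were present: the proximal tubule gene Slc34a1 read 2600 ± 78.5 in normal and 2682 ± 80.4 in hyperinsulinemic samples, and the podocyte gene Nphs1 340.3 ± 17.0 and 352.4 ± 14.5. Of 11 tested proximal tubule genes 8 were lower in the hyperinsulinemic group and 3, Slc34a1 among them, higher (median log2 difference -0.05). Of 5 tested podocyte genes 2 were lower and 3 higher (median 0.02). Values after ± are SDs of signals or standard errors of log2 differences, over 5 arrays in each group. In whole tissue, fewer cells of a type and less RNA per cell cannot be told apart.

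A probe set was tested if at least 5 of the 10 arrays gave it a signal at or above that array's 40th percentile, which was 79.2 to 87.6 depending on the array. Of the 16 member probe sets 12 did, and they covered 5 of the 8 genes: Il33, Il6st, Cxcl12, Cxcr4 and Cx3cl1. The remaining 4 probe sets, of Il1rl1, Il18 and Ccl2, were below that signal on all 10 arrays. Of the 12, limma with Benjamini-Hochberg adjustment over 9601 probe sets called 0, where it called 0.0104% of all tested probe sets, and 2 had an unadjusted p under 0.05, both of Il33, against 5.36% of all tested. Since the genes were chosen with this comparison known, nothing is read from these counts.

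Il33 was lower in kidneys of the hyperinsulinemic group on both of its probe sets, and by different amounts. On the brighter one, 1373970_at, the normal arrays read 548.3, 516.9, 588.1, 430.8 and 652 for replicates 1 to 5. The hyperinsulinemic arrays read 274.7, 402.3, 426.5, 287.8 and 400.9 for replicates 6 to 10. The groups did not overlap, but they came close: the lowest normal array, replicate 4, was 430.8 and the highest hyperinsulinemic one, replicate 8, was 426.5. Groups without overlap and with the hyperinsulinemic arrays lower made up 0.51% of all tested probe sets.

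The group means of this probe set were 547.2 ± 82.4 and 358.4 ± 71.4. The log2 difference, on the scale of log2(signal + 16), was -0.60 ± 0.13, which is 34.0% lower. Of 9601 tested probe sets 4 had a lower log2 difference and 17 a larger one in either direction. Within the hyperinsulinemic group the arrays fell into a lower pair, replicates 6 and 9, and a higher set of 3.

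On the second probe set, 1389581_at, the normal arrays read 198.5, 170.6, 207.4, 242.7 and 212.6 and the hyperinsulinemic arrays 110.7, 153.8, 175.8, 182.3 and 211.1. These ranges overlapped, and hyperinsulinemic replicate 10 was above 3 of the normal arrays. The means were 206.4 ± 26.0 and 166.7 ± 37.4, a log2 difference of -0.30 ± 0.13. Without hyperinsulinemic replicate 6, the array that stood apart and the lowest on both probe sets, the log2 difference was -0.18 ± 0.10 on this probe set and -0.51 ± 0.12 on the brighter one. After each group's mean was subtracted, the 2 probe sets correlated at r = 0.31 over the 10 arrays, given here as a description. Normal replicate 4 was the lowest normal array on the first and the highest on the second.

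**Figure D1:**
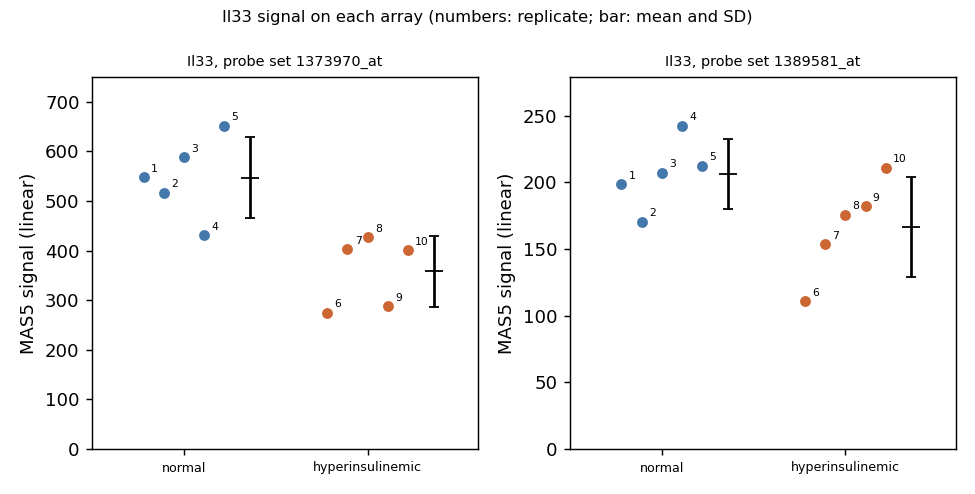
MAS5 signal of Il33 on each of the 10 arrays, by group, for both probe sets, with replicate numbers beside the points and the mean and SD as a bar. On 1373970_at the normal arrays lie between 430.8 and 652 and the hyperinsulinemic arrays between 274.7 and 426.5, while on 1389581_at the groups overlap.

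Markers of the stroma, the liver and red blood cells differed between the groups in 1 direction for most or all tested genes, with 0 called. Other lists leaned as well, also with 0 called: 8 of 11 tested proximal tubule genes and 7 of 9 endothelial genes were lower, and 5 of 8 macrophage genes were higher. Stroma is one of the compartments in which Il33 is made. Of the 13 genes in the stroma list 11 were on the array and all 11 were tested; hyperinsulinemic values were lower for 10 and higher for 1, and the median log2 difference was -0.15. None of the 11 was called in limma. The collagen-binding gene Lum had the largest difference of the list (-0.63). It was the 1 gene of the list whose groups did not overlap, at 274.3 to 414.4 and 181.5 to 257.3. Of all tested probe sets 0.51% did not overlap in this direction. Dcn, nearer the median at -0.145, ran from 1745.9 to 1868.7 and from 1510.3 to 1783.7. The summed signal of the 11 stroma genes was 12960 to 14880 in the normal and 11360 to 13390 in the hyperinsulinemic group, and none of them was listed at 0. As a mean of log2 values the list ran from 9.79 to 9.96 and from 9.53 to 9.71, with no overlap. The share given for Lum is of single probe sets and does not apply to a list mean. Across arrays of the same group the order was the opposite: after subtraction of the group means, Il33 (1373970_at) and the stroma mean had r = -0.74 over 10 arrays, and in the normal group the array with the highest stroma mean, replicate 4, had the lowest Il33 and the one with the lowest, replicate 5, the highest. On the second probe set that r was -0.32. These are descriptions of 10 arrays, and the part of stroma in the Il33 difference was not tested.

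The liver list had 11 of its 12 genes on the array, of which 7 were tested and all 7 were higher in the hyperinsulinemic group. A gene could pass the filter through the 5 arrays of its higher group alone, so this count is not independent of the filter. The mean log2 value of all 11, tested or not, ran from 5.83 to 7.18 in the normal and from 6.23 to 8.40 in the hyperinsulinemic group, the summed signal of the 11 genes from 551.7 to 2071 and from 758.1 to 5361, and none was listed at 0. Normal replicate 4 and hyperinsulinemic replicate 6, the highest of their groups for liver genes, were also the lowest of their groups for Il33 on 1373970_at (r = -0.68 over 10 arrays after subtraction of the group means). With this mean of 11 genes as a covariate, a fit added after the data were seen, the log2 difference of Il33 was -0.39 ± 0.12, and -0.17 ± 0.15 on the second probe set. The liver mean itself averaged 6.12 in the normal and 6.98 in the hyperinsulinemic group. The fit therefore cannot divide the Il33 difference between liver signal and group, and the part of liver signal was not tested.

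**Figure D2:**
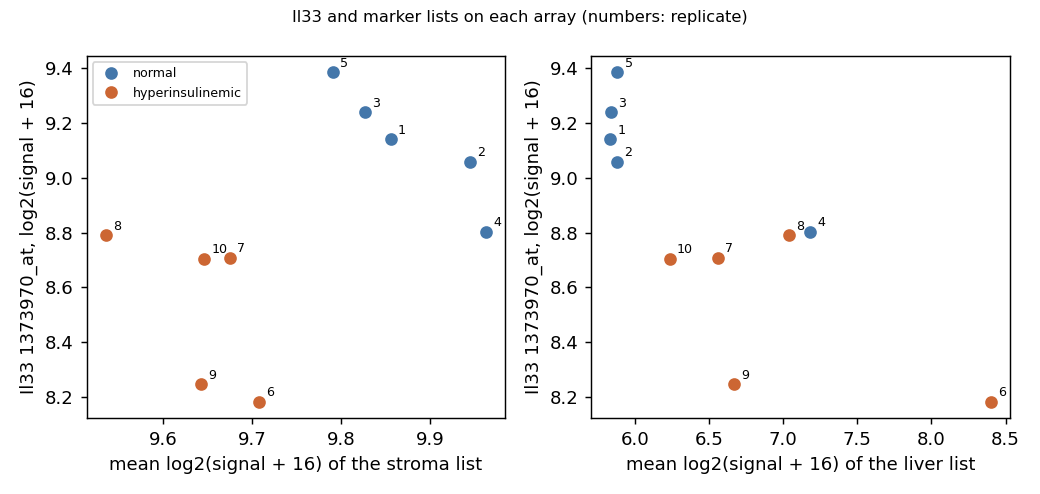
Il33 (1373970_at) on the log2(signal + 16) scale against the mean log2(signal + 16) of the stroma list (left) and of the liver list (right), 1 point per array with its replicate number. The stroma means of the groups do not overlap, and normal replicate 4 and hyperinsulinemic replicate 6 have the most liver signal and the least Il33 within their groups.

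Endothelial cells also make Il33, and their markers did not separate the groups. Of 10 endothelial genes on the array 9 were tested, 7 lower and 2 higher, and their median log2 difference was -0.005. The list's mean log2 value ran from 8.35 to 8.43 in the normal and from 8.29 to 8.43 in the hyperinsulinemic group. Their summed signal was 4119 to 4338 and 4074 to 4498. After subtraction of the group means their mean log2 value had r = 0.20 with 1373970_at and 0.64 with 1389581_at over 10 arrays.

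The erythroid list had 4 of its 8 genes on the array, of which 3 were tested and all 3 were higher in the hyperinsulinemic group, with a median of 0.16 on the log2 scale and 0 called. The haem synthesis gene Alas2 stood at 434.9 ± 70.6 and 553.2 ± 169, and the beta-globin gene Hbb at 5255 ± 515 and 5877 ± 739. The summed signal ran from 5076 to 6564 and from 5997 to 8073, the mean log2 value from 8.37 to 8.81 and from 8.52 to 8.99, and none was listed at 0. Within groups this mean had r = 0.89 with the second Il33 probe set, 1389581_at, the highest of the 11 marker lists, and -0.08 with 1373970_at. On the second probe set the mast cell list had r = 0.77, the macrophage list 0.60 and the liver list -0.45. With 11 lists and 2 probe sets compared over 10 arrays, these are descriptions, and the part of any of these lists in the Il33 difference was not tested.

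Il1rl1, the receptor through which immune cells sense Il33, had dim signals in both groups. On 1387273_at the normal arrays ran from 26 to 47.2 (36.2 ± 7.79) and the hyperinsulinemic arrays from 23.5 to 60.8 (36.4 ± 16.2). On 1370692_at they ran from 7.1 to 20.4 and from 6.2 to 44.6. The ranges overlapped on both, and none of these 20 readings reached the filter. Il1rap, which encodes the partner chain of that receptor, was also below it, at 37.0 ± 8.07 and 44.8 ± 3.57. Mast cells are among the cells known to carry the Il1rl1 receptor. Of the 10 mast cell and basophil genes on the array 7 were below the filter, Cpa3 among them, at 53.4 to 64.9 and 43 to 60.1. The 3 tested were Kit, the transcription factor gene Gata2 (259.6 ± 42.7 and 275.5 ± 22.1) and the tryptase gene Tpsb2, which ran from 20.3 to 132 and from 21.8 to 147.8; 2 were higher, 1 lower and 0 called. The list's summed signal was 563.7 to 778.2 and 577.5 to 735.1.

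Il18 read 30.9, 47.1, 30.4, 40.8 and 35.4 on the normal arrays and 39.8, 26.7, 29.7, 47 and 52.8 on the hyperinsulinemic arrays. The means were 36.9 ± 7.07 and 39.2 ± 11.1, the ranges overlapped, and no array reached the filter. Casp1, which encodes the protease that matures interleukin-18, stood at 69.5 ± 9.19 and 63.9 ± 8.59. Il18bp, a decoy that binds interleukin-18, stood at 39.3 ± 7.09 and 51.3 ± 10.6, both below the filter on every array.

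Il6st was well above the filter on 2 of its 3 probe sets, and the groups overlapped on all 3. On 1371926_at the normal arrays read 551.5, 521.3, 558.2, 500.2 and 462.1 and the hyperinsulinemic arrays 523.8, 567.3, 497.3, 451.9 and 554.4, with means of 518.7 ± 39.3 and 518.9 ± 46.3. The log2 differences of its probe sets 1371926_at, 1373140_at and 1370957_at were -0.001 ± 0.07, -0.04 ± 0.10 and -0.07 ± 0.12. Across arrays of a group its 3 probe sets had little in common, at r = 0.04, 0.04 and -0.29 over 10 arrays. Interleukin-6, its receptor chain and the receptor chain of leukaemia inhibitory factor had genes below the filter: Il6 stood at 13.3 ± 5.48 and 14.3 ± 8.64, Il6r at 10.8 ± 5.00 and 13.9 ± 5.98, and Lifr at 51.3 ± 8.68 and 50.4 ± 8.90.

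Cxcl12 was bright on each of its 3 probe sets, and they disagreed in direction. On 1388583_at the normal arrays read 1490.5, 1660.5, 1635.6, 1692.4 and 1614.6 and the hyperinsulinemic arrays 1858.2, 1622.4, 1637.1, 1631.5 and 1843.8. Replicates 6 and 10 were above every normal array, while the other 3 lay within the normal range. The log2 difference was 0.08 ± 0.06.

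On 1369633_at the normal arrays read 839.2, 988.9, 924.5, 1033.7 and 823.4 and the hyperinsulinemic arrays 842.7, 900.8, 809.4, 789.6 and 845.2. Here 3 normal arrays were above every hyperinsulinemic one, and the log2 difference was -0.13 ± 0.07. The third probe set, 1387655_at, differed by -0.12 ± 0.09. The signs held for each probe set when any single array was left out. The log2 ratio of 1388583_at to 1369633_at within an array was 0.81 ± 0.10 in the normal and 1.02 ± 0.12 in the hyperinsulinemic group (SD), with overlapping ranges of 0.70 to 0.96 and 0.84 to 1.13, so the mean shifts between the groups were unequal. Across arrays of the same group the 3 probe sets correlated at r = 0.55, 0.44 and 0.40 over 10 arrays. Since their group differences disagree in sign, no single direction is given for the gene.

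Cxcr4, the Cxcl12 receptor gene, had nearly the same signal in both groups. On 1370097_a_at the normal arrays read 222.2, 218.8, 229.7, 243.5 and 215.1 and the hyperinsulinemic arrays 208.5, 228.4, 232.6, 237.7 and 250.5. The log2 differences of 1370097_a_at, 1373661_a_at and 1389244_x_at were 0.03 ± 0.07, -0.05 ± 0.07 and 0.07 ± 0.10, and the groups overlapped on each. On 1373661_a_at normal replicate 2 read 247.6, against 216.6 to 224.2 for the other normal arrays. The last of these probe sets carries the suffix by which Affymetrix marks sets that may also bind other transcripts. Ackr3, which encodes the other receptor of Cxcl12, stood at 315.4 ± 40.2 and 317.6 ± 34.3, a log2 difference of 0.01 ± 0.09.

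Cx3cl1 read 241.9, 254.3, 226.5, 206.7 and 255.7 on the normal arrays and 213.7, 222.4, 238.3, 260 and 246.1 on the hyperinsulinemic arrays. The means were 237.0 ± 20.6 and 236.1 ± 18.5, and the difference was far smaller than the spread within either group. Its receptor gene Cx3cr1, a macrophage gene, was below the filter at 57.4 ± 4.46 and 53.9 ± 9.95. The macrophage list had 8 of 10 genes on the array tested, 3 lower and 5 higher, with summed signals of 1398 to 1654 and 1482 to 1580.

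Ccl2, the monocyte chemokine gene, was at the floor of the array. The normal arrays read 5.1, 3.6, 4.7, 3.1 and 1.8 and the hyperinsulinemic arrays 2.9, 11.6, 6.1, 2.1 and 4.7. Such signals have no order that can be read. Its receptor gene Ccr2 stood at 20.2 ± 5.71 and 19.7 ± 3.90, also below the filter on every array.

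**Figure D3:**
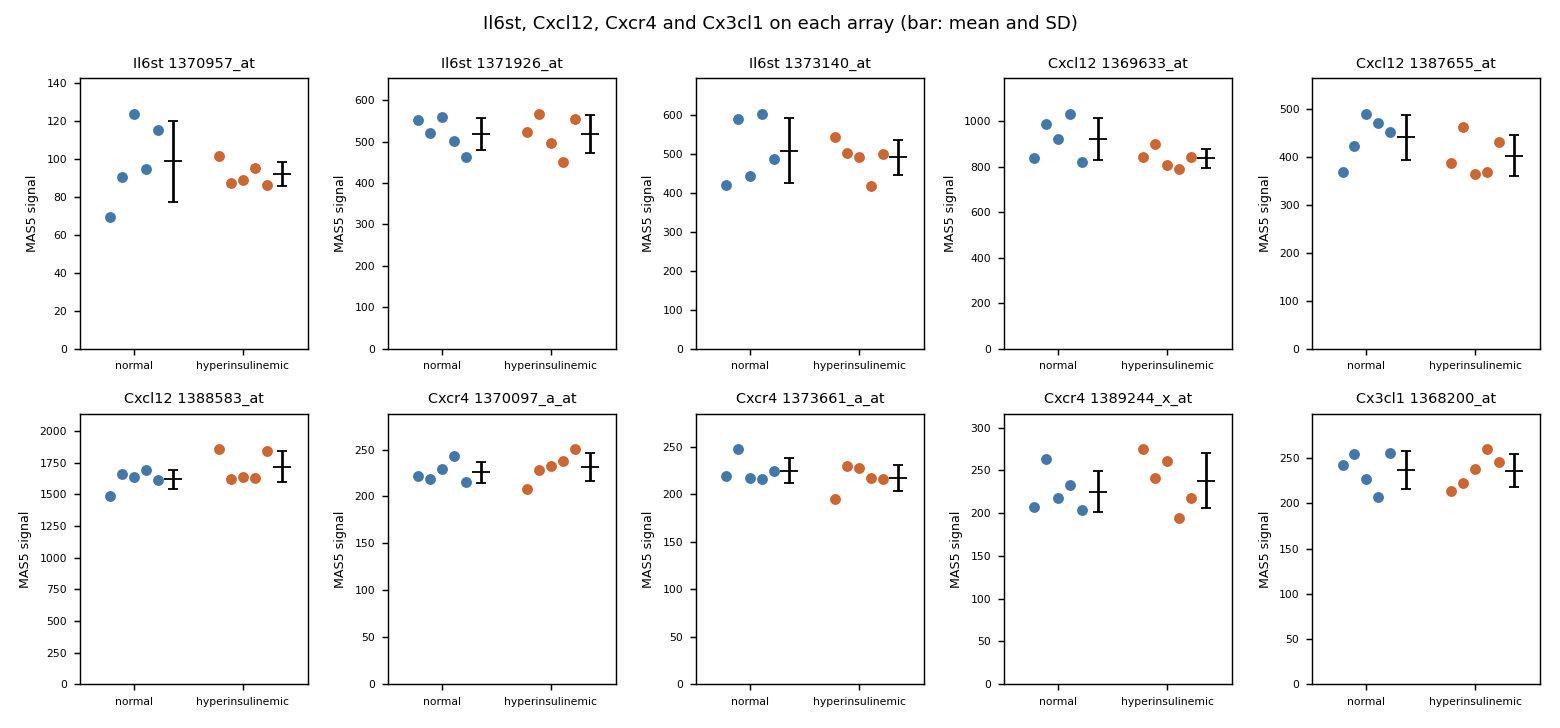
MAS5 signal of the 10 tested probe sets of Il6st, Cxcl12, Cxcr4 and Cx3cl1 on each array, by group, with the mean and SD as a bar; every axis starts at 0. The groups overlap on all 10 probe sets, and among those of Cxcl12 the group mean is higher on 1388583_at (1619 and 1719) and lower on 1369633_at (921.9 and 837.5).

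Set side by side, the tested probe sets other than those of Il33 had log2 differences between -0.13 and 0.08. Over the 12 tested member probe sets 9 were lower and 3 higher and the median difference was -0.04 on the log2 scale, beside a median of 0.002 and 4713 lower probe sets among all 9601. Standard errors ran from 0.06 to 0.13.

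**Figure D4:**
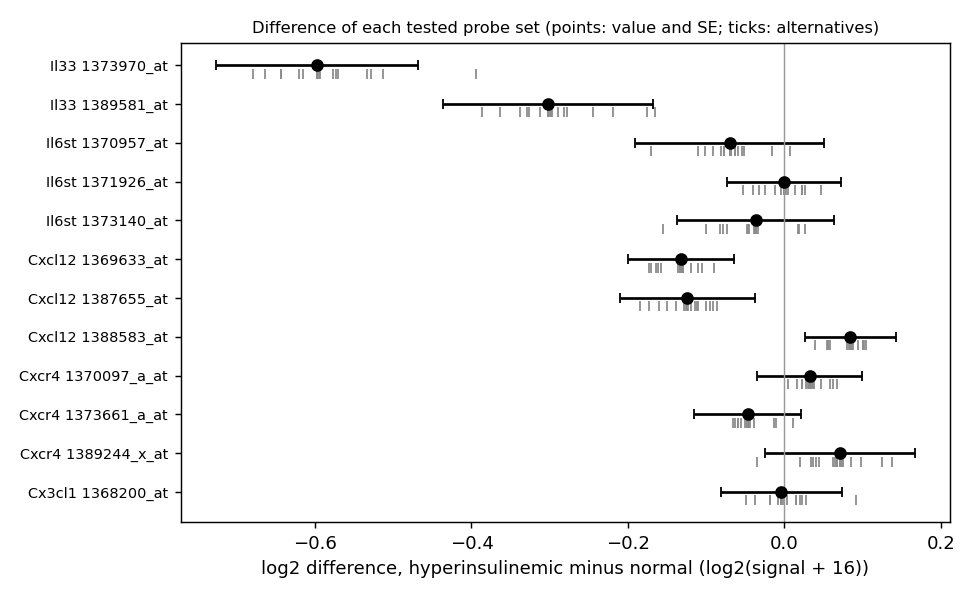
Log2 difference, hyperinsulinemic minus normal, of each tested member probe set, with its standard error, and below it as ticks the values under the alternative settings and with each array left out. Both Il33 probe sets lie below 0 in every setting in which they were tested, and the other 10 points lie between -0.13 and 0.08.

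Other genes of the same pathways, taken from 13 lists of ligands, receptors and signalling proteins, did not pass the test, and neither did any member. Of 233 listed genes that are no members, 149 were on the array and 63 were tested. In limma 0 of the 63 passed after adjustment over all 9601 probe sets, the smallest adjusted p being 0.907, and 2 had an unadjusted p under 0.05, or 3.17%, against 5.36% of all tested probe sets. In all, 25 were higher and 38 lower; log2 differences had a median of -0.02 and a range of -0.23 to 0.19. Both Il33 values lay outside that range, but Il33 was chosen for the size of its difference, so nothing is read from that.

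Except for Il33, the ligand and receptor genes of the interleukin-1 family that were on the array were dim. Apart from the members, 3 of 10 listed ligand genes and 5 of 10 listed receptor or decoy genes of the family were on the array and none was tested. Il1b stood at 42.1 ± 7.56 and 41.6 ± 6.16. Downstream of these receptors 8 of 11 genes on the array were tested, 5 higher and 3 lower; Tab1, an adaptor of the kinase TAK1, stood at 406.4 ± 19.4 and 448.4 ± 16.1, a log2 difference of 0.14 ± 0.06 (limma, adjusted p = 0.918). Tab2, a related adaptor, differed by -0.10 ± 0.08 and the Toll receptor adaptor gene Tirap by 0.09 ± 0.09. The 1 tested inflammasome gene, Casp4, differed by -0.09 ± 0.11.

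Few chemokines were above the filter. Of 22 chemokine genes on the array other than the members 3 were tested: Ccl20 (-0.02 ± 0.12), the platelet chemokine gene Pf4 (-0.09 ± 0.10) and Cxcl16 (-0.06 ± 0.09). Of 11 other chemokine receptor genes on the array 2 were tested, Ackr3 and the scavenging receptor gene Ackr2 (-0.04 ± 0.12). Enzymes that cut or shed chemokines were measured better, with 7 of 8 tested, 5 lower and 2 higher. The cysteine protease gene Ctss stood at 131.3 ± 16.1 and 112.4 ± 16.2, or -0.20 ± 0.10 on the log2 scale (limma, adjusted p = 0.941), Mmp9 differed by -0.14 ± 0.09 and Adam10, which encodes a sheddase of the Cx3cl1 protein, by -0.07 ± 0.07.

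Among cytokines and receptors that signal through Il6st, the 3 tested genes were lower: the interleukin-11 receptor gene Il11ra1 (-0.18 ± 0.15), Cntf (-0.08 ± 0.10) and Ctf1 (-0.03 ± 0.08). In the JAK-STAT list 10 genes were tested, 4 higher and 6 lower, led in size by the kinase gene Tyk2 at 223 ± 11.6 and 201 ± 10.2, or -0.14 ± 0.07 on the log2 scale (limma, adjusted p = 0.931), Ptpn11 (0.09 ± 0.09) and the feedback inhibitor gene Cish (0.07 ± 0.14). Of 9 tested genes of NF-kappa-B and its targets 5 were higher and 4 lower. Nfkb1, which encodes a subunit of that factor, differed by 0.19 ± 0.11, the adhesion molecule gene Icam1 by -0.17 ± 0.10 and the inhibitor gene Nfkbib by 0.15 ± 0.08.

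Among the other cytokine receptors 13 genes were tested, 4 higher and 9 lower. Il3ra, which encodes the interleukin-3 binding chain, stood at 140.9 ± 2.76 and 118.5 ± 15.5, a log2 difference of -0.23 ± 0.09 (limma, adjusted p = 0.907). It was the 1 gene of the 63 whose groups did not overlap, beside 0.51% of all tested probe sets that did not overlap in this direction. Tnfrsf12a differed by -0.13 ± 0.10 and the interferon receptor gene Ifnar1 by -0.11 ± 0.12. Of the other cytokines 7 were tested, 4 higher and 3 lower, with Tnfsf13 at -0.16 ± 0.12, the macrophage growth factor gene Csf1 at 0.14 ± 0.12 and Il15 at 0.08 ± 0.11. Lymphocyte markers were dim, with 1 of 11 genes on the array tested.

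**Figure D5:**
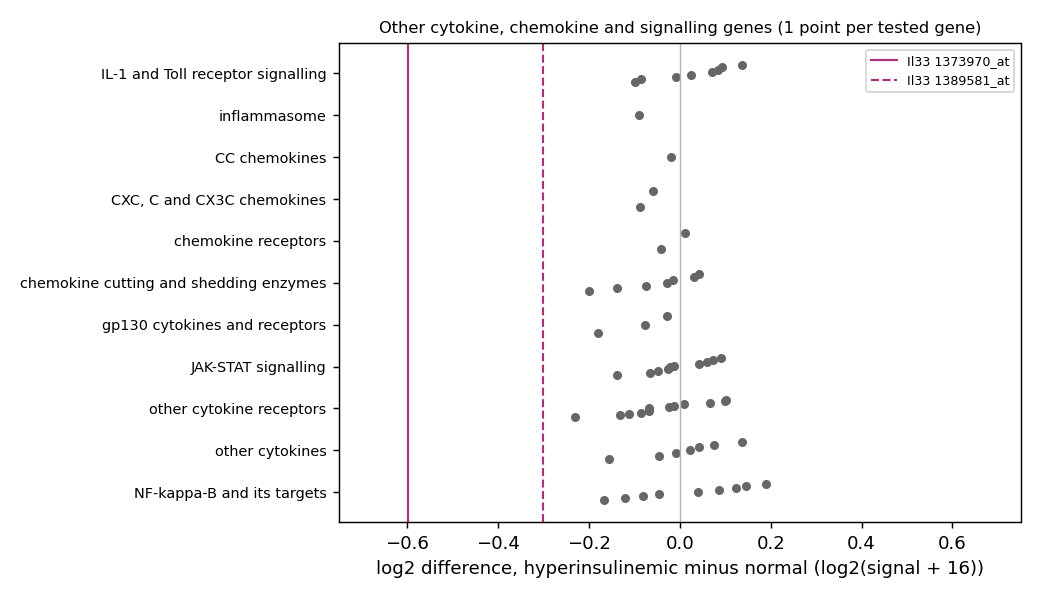
Log2 difference, hyperinsulinemic minus normal, of the 63 tested pathway genes that are no members, 1 point per gene, by list. The points lie between -0.23 and 0.19, and the lines mark the Il33 probe sets at -0.60 and -0.30. Il33 was chosen for its difference, so its place outside the points is no result.

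The genes whose signals varied most like Il33 among arrays of the same group had log2 differences between the groups of -0.04 to 0.07. Il33 was chosen for the size of its difference and these genes were not, so no contrast is drawn. Likeness was Pearson's r of log2(signal + 16) over the 10 arrays after each group's mean was subtracted, against 8258 named probe sets, and with so many compared the highest values are high by selection. The 5 highest for 1373970_at were the translation elongation factor gene Eef1g (r = 0.96), Fam120a (0.93), the DNA repair gene Ddb1 (0.91), the splicing factor gene Srsf2 (0.89) and the prolactin receptor gene Prlr (0.88). Their log2 differences between the groups were -0.02 ± 0.06, -0.04 ± 0.07, 0.02 ± 0.07, 0.07 ± 0.05 and 0.02 ± 0.09.

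For the brightest probe sets of the other members the highest were Ccni (0.94), Smarca2 (0.93) and Dusp23 (0.91) for Il6st, the chaperonin gene Cct5 (0.97), Thoc7 (0.96) and Id2 (0.95) for Cxcl12, C18h18orf54 (0.94), Rabggtb (0.92) and Txndc12 (0.90) for Cxcr4, and the lipid droplet gene Plin2 (0.91), Irak1 (0.90) and Zfp518b (0.89) for Cx3cl1. Among the members themselves the pairs ran from -0.48, for Cxcr4 with Cx3cl1, to 0.38, for Cxcl12 with Cxcr4. Cxcr4 was represented here by 1389244_x_at, the probe set that may also bind other transcripts. The Cxcr4 probe sets correlated with one another at r = 0.15, -0.41 and 0.12 over 10 arrays. The Cxcr4 values of this paragraph therefore hold for that probe set only. Il33 had r = 0.25 with Il6st, -0.33 with Cxcl12, -0.14 with Cxcr4 and 0.35 with Cx3cl1.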

How the data were processed

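Total RNA of 10 fetal kidney samples was measured on 1-colour arrays. The deposited values were linear intensity values, and the submitters' processing notes name MAS5, which the authors used to give 1 signal per probe set; its version and settings are not given in the sources used here, nor are detection calls. The platform annotation gave 1 symbol for 12789 of 15923 probe sets, several for 312 and 2822 were unnamed here; 12754 matched the GRCr8 gene table by Entrez identifier. Values were used as log2(signal + 16), so fold changes of dim genes are understated. After 57 control probe sets were left out, 9601 probe sets passed the filter and were fitted with limma 3.58.1 in R 4.3.3 (lmFit, then eBayes with a trend on intensity). Tests were two-sided, and calls used Benjamini-Hochberg adjusted p-values under 0.05. The fit was tested on simulated data. Figures used Python 3.11.15 and matplotlib 3.10.9. The number of arrays limits the precision.

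Members and gene lists were chosen with earlier results of these data known. Named genes were all members, at most 3 tested genes per pathway list by size of difference (brightest probe set per gene), and the genes most like each member; untested partners were named for their known binding or processing role. Alternatives were other normalizations, pseudocounts of 1 and 32, no filter and a 60th percentile filter, no trend, array weights, each array left out and, added later, the liver mean as a covariate.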

Additional observations from a re-analysis of the deposited data

Results flagged for a closer look

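Of 120 groups of 5 arrays looked at (60 probe sets named here, in both groups), 4 held a single array far from the other 4 by Dixon's criterion; chance alone flags about 1 group in 20. Cxcr4 on 1373661_a_at read 247.6 in normal replicate 2 and 216.6 to 224.2 on the other normal arrays. Ifnar1 read 143.5 in normal replicate 4 and 85.8 to 102.5 on the others. Icam1 read 157.6 in normal replicate 2 and 184.9 to 188.2 on the others. Csf1 read 168.2 in hyperinsulinemic replicate 10 and 97.9 to 117.8 on the others.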

How the results depend on the processing

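Of the member probe sets 0 were called under each of the 8 planned settings, with the liver covariate and with each of the 10 arrays left out, and the same held for the pathway genes. The log2 difference of Il33 (1373970_at) stayed below 0 in all 19, from -0.68 (without normal replicate 4) to -0.51 (without hyperinsulinemic replicate 6), and from -0.62 to -0.39 over the other settings, -0.39 being with the liver covariate. On 1389581_at it was -0.39 to -0.18 with an array left out and -0.33 to -0.17 otherwise; the stricter filter removed it and 1 Il6st probe set, leaving 10 member probe sets. The Cxcl12 probe sets kept their opposite signs in all 19. The signs of Il6st, Cx3cl1 and 2 of the 3 Cxcr4 probe sets turned under some alternatives, at sizes within the spread between arrays. Il1rl1, Il18 and Ccl2, below the filter on every array and with overlapping groups, are too dim for a difference to be read. No paired analysis was possible because the labels number the groups 1 to 5 and 6 to 10 and share no number.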
